A study of Mus musculus with 24 samples.

Results

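The lysosome and autophagy genes described here are 38 mouse genes chosen by name, with Tfe3 at their head, out of 55414 gene identifiers in the count files. All 38 were found by symbol and all 38 passed the filter on low counts, which left 19616 genes for testing. They were chosen with diet results of these libraries known, so their diet values are a description and not independent evidence. The RNA came from LSK cells, which are lineage-negative, Sca-1-positive, Kit-positive blood stem and progenitor cells, sorted from the bone marrow of mouse pups at postnatal day 21, and gave 24 libraries. The dams were C57BL/6J mice on regular chow (2018SX, control) or a Western diet (TD.88137) that serves as a model of maternal obesity, for 4 weeks before mating and on through pregnancy and lactation. Both sexes were sampled: female control, female Western diet, male control and male Western diet pups gave 6 libraries each, and each of 3 labelled batches held 2 libraries of every group. The labels give all 24 libraries the same range of dam age, which starts at 4 weeks, so the groups share it. The study's title names sex-specific expression differences in pups of obese dams as its question. Dam and litter are not in the labels, so libraries may share a litter, and the p-values here rest on library-to-library spread alone.

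Lysosomes are acidic compartments in which hydrolases break down proteins, glycans and lipids, and autophagy delivers the cell's own material to them inside double-membraned vesicles. TFE3, TFEB, MITF and TFEC form the MiT/TFE family of transcription factors, which bind E-box motifs, among them the CLEAR element (coordinated lysosomal expression and regulation) found at many lysosomal genes. When nutrients are plentiful, mTORC1 at the lysosome keeps TFE3 and TFEB phosphorylated in the cytoplasm, and when nutrients are short these factors enter the nucleus. Blood stem cells are known to depend on lysosomes and autophagy to stay quiescent, and factor activity is set largely by location in the cell, which RNA counts do not measure.

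The CLEAR-type motif is shown first because it is the sequence feature that defines many targets of these factors. RefSeq promoter windows of 300 bases (250 before and 50 after a start, build GRCm38.p6, an older build than that of the counts) were found for 33 members, in 40 windows. Ctsb, Galns, Atp6v1b2, Atp6v1h and Becn1 had no window. Both strands were searched for CACGTG, the E-box core, and for TCACGTGA, which contains it. CACGTG stood in 12 of the 40 member windows and in 7.15% of all 32851 windows. TCACGTGA stood in 6 member windows and in 0.974% of all windows. These 6 windows belong to the calcium channel Mcoln1, the proteases Ctsa and Ctsd, the galactosidase Gla and the proton pump subunits Atp6v0d1 and Atp6v1a. Each stretch below reads 5′ to 3′ along the gene, with TCACGTGA in capitals and 16 bases on either side.
Mcoln1, chr8:3500457-3500496, plus strand: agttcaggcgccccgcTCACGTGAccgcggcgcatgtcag
Ctsa, chr2:164833744-164833800, plus strand: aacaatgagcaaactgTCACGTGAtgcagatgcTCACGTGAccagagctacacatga
Ctsd, chr7:142387903-142387942, minus strand: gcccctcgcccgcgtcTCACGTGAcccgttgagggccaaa
Gla, chrX:134601177-134601249, minus strand: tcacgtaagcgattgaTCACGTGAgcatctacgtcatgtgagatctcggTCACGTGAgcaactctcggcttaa
Atp6v0d1, chr8:105566045-105566084, minus strand: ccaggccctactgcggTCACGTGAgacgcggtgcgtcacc
Atp6v1a, chr16:44139368-44139407, minus strand: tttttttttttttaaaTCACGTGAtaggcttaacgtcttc
Ctsa and Gla carried the motif at 2 places, and the other 4 genes at 1. Neither Tfe3 nor Wipi1, the members that fell in females among the factors and the autophagy genes, had CACGTG in the window, and their windows are printed for comparison with the stretches above. Tfe3 has a second window, also without it.
Tfe3, chrX:7762411-7762710, plus strand: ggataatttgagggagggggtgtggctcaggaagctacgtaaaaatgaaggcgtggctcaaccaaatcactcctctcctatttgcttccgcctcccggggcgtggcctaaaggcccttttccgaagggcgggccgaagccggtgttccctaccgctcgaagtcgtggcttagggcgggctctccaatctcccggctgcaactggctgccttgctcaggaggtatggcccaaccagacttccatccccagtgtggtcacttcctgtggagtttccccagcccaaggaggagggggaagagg
Wipi1, chr11:109611340-109611639, minus strand: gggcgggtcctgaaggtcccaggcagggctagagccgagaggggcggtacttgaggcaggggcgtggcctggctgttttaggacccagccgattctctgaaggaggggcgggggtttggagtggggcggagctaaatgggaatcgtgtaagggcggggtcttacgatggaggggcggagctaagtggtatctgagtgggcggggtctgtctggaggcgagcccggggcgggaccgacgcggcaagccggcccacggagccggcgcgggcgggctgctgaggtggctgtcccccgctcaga
No match says only that these letters are absent from this window.

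Libraries held 38057263 to 51581968 counts in genes, and values below are CPM, that is counts scaled to library size, unless stated. In batch 3, female control libraries 5 and 6 lay far from the rest. On the first principal component, which held 17.5% of the variance, they were at -91.0 and -72.4, while the others were between -29.3 and 41.8. Their summed LSK markers were 1022 and 1011 CPM, the lowest of the 24 libraries, whose highest was 2595. Values of the members called in females or in the average are therefore given with and without both, and those of other called genes in part. Kit had a median of 533.7 in female controls and 479.2 in female Western diet pups, and Ly6a, which encodes Sca-1, had medians of 8.67 and 17.3. Of the 8 LSK markers 6 had diet log2 fold changes above 0 in females (median 0.51) and 5 in males (median 0.05). In females edgeR called 1 of the 8 (adjusted p under 0.05), beside 5.42% of all genes, and DESeq2 called 4. Without both libraries edgeR called none of the 8. No marker list of another cell type was at 0, and leading genes were Vcam1 (macrophages), S100a8 (neutrophils), Prss34 (mast cells and basophils), Hbb-bs (mature erythroid cells), Ighm (B and plasma cells), Flt3 (dendritic cells) and Nkg7 (T and NK cells). Flt3 is also among the summed LSK markers, so it does not separate dendritic cells from LSK cells.

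Tfe3 RNA was lower in female Western diet pups than in female controls. The female control libraries 1 to 6 had 63.2, 40.1, 44.9, 44.8, 70.1 and 57.6 CPM, and the female Western diet libraries had 42.2, 41.6, 30.8, 31.7, 22.6 and 25.1. All 6 Western diet libraries lay below the control mean of 53.5 ± 12.0 (SD, n = 6), and 4 lay below every control. The log2 fold change was -0.73 ± 0.17 (SE), and Tfe3 was among the 1064 genes called in females (edgeR, adjusted p under 0.05), which is 5.42% of genes tested. In males the groups overlapped, at 30.6, 38.3 and 57.8 (lowest, median, highest) in controls and 33.3, 40.3 and 44.7 in Western diet pups, and the log2 fold change was -0.02 ± 0.17. The difference of the male and female effects was 0.71 ± 0.24 with an adjusted p of 0.589, so a sex difference in the Tfe3 response did not pass the test. In bulk RNA, fewer cells of a type and less RNA per cell cannot be told apart, for Tfe3 and for every gene below. 

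**Figure D1:**
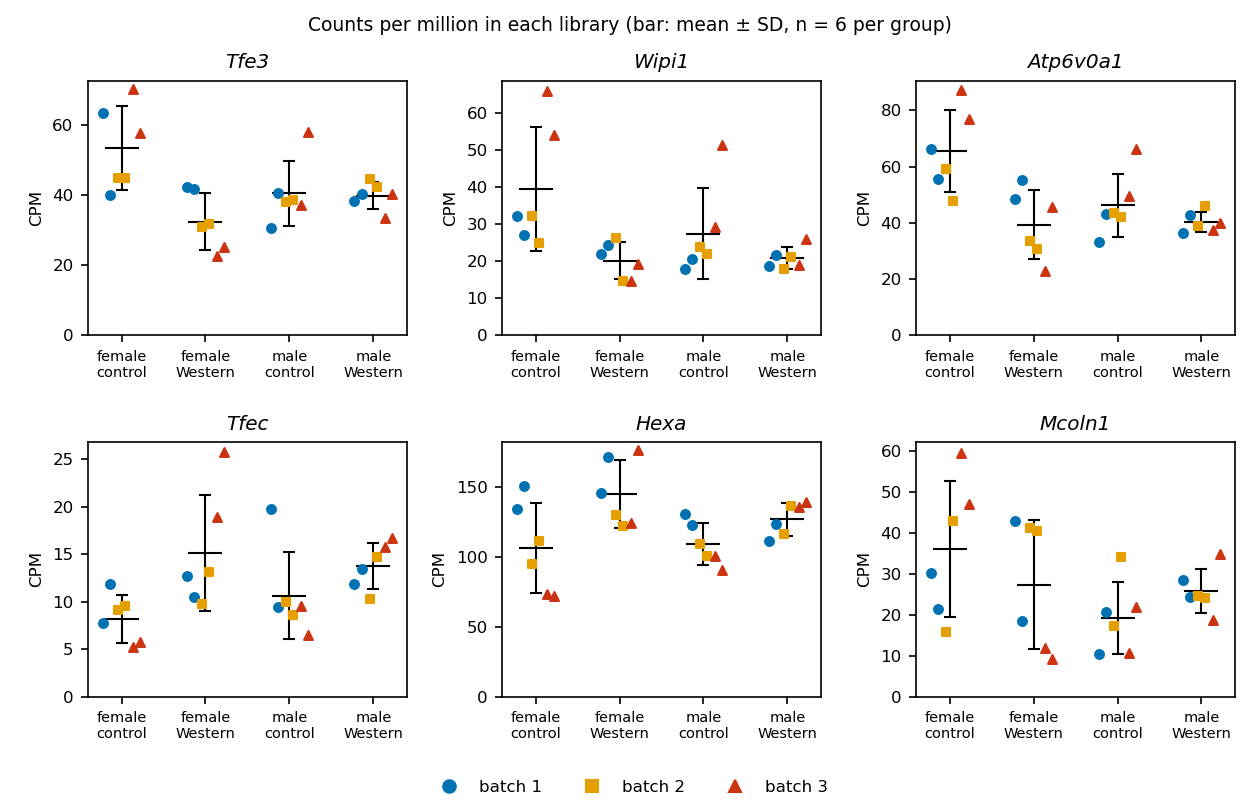
CPM of 6 genes in each library (y axis) by sex and diet (x axis), with shape and colour for batch and bars for mean ± SD of 6 libraries. In females Tfe3 falls from a mean of 53.5 to 32.3 CPM, and the batch 3 controls are the highest for Wipi1, Atp6v0a1 and Mcoln1 and the lowest for Tfec and Hexa.

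The female difference in Tfe3 was unequal between batches. Within batches 1, 2 and 3 the differences in mean log2 CPM were -0.27, -0.52 and -1.41. Without both batch 3 female controls the log2 fold change was -0.55 ± 0.18 with an adjusted p of 0.213, and the call was lost. In males the 3 batches gave 0.16, 0.18 and -0.34.

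None of the other family members was called in females in edgeR, while DESeq2 called Tfec (0.86). Tfec, whose RNA is typical of myeloid cells, ran the opposite way: female controls had 5.18, 8.42 and 11.9 CPM (lowest, median, highest) and female Western diet pups 9.74, 12.9 and 25.8. In 4 of 6 Western diet libraries Tfec lay above every control, but the log2 fold change of 0.87 ± 0.27 missed the threshold in edgeR (adjusted p = 0.0554). The call was gained with no filter on low counts (0.85), with a stricter filter (0.88) and without batch 1 (1.12), and without both batch 3 female controls the value was 0.51 ± 0.28 (adjusted p = 0.480). Male values were 6.53, 9.51 and 19.7 in controls and 10.2, 14.1 and 16.7 in Western diet pups, with a log2 fold change of 0.39 ± 0.26. Averaged over both sexes Tfec rose by 0.63 ± 0.19 (adjusted p = 0.0490), which stood in batch 3 more than elsewhere: in females the batches gave 0.26, 0.27 and 2.02. Without the 2 female controls of batch 3 the average was 0.43 with an adjusted p of 0.263.

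Tfeb, the best-known lysosomal regulator of the family, had medians of 7.32 in female controls and 7.08 in female Western diet pups, with ranges of 4.92 to 11.5 and 3.497 to 9.74. Males had medians of 6.71 and 8.32, with ranges of 4.56 to 10.98 and 5.85 to 11.4. Its diet log2 fold changes were -0.24 ± 0.20 in females and 0.26 ± 0.20 in males, and both missed the threshold (-0.29 ± 0.23 in females without both batch 3 controls). Mitf, the melanocyte and mast cell factor, had medians of 5.16 and 6.12 in females (ranges 4.36 to 6.45 and 3.78 to 9.67) and 4.16 and 5.73 in males (ranges 3.17 to 5.71 and 4.91 to 7.26). Its log2 fold changes were 0.26 ± 0.20 and 0.43 ± 0.21, also short of the threshold (0.21 ± 0.24 in females without both batch 3 controls).

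Compared per kilobase of exon, so that genes of different length can be ordered, Tfe3 was the highest of the family in 21 of 24 libraries, Tfec was second in 18, and Tfeb exceeded Mitf in 22. Tfe3 made up 60.7% ± 10.4 (SD, n = 6) of the family's summed level in female controls and 41.2% ± 7.26 in female Western diet pups. In males the shares were 52.9% ± 8.85 and 46.8% ± 4.21. The Tfec share was 15.7% ± 5.36 and 32.6% ± 13.8 in females. Since shares sum to the whole, they repeat the levels of Tfe3 and Tfec and are no further result.

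In females 4 of the 38 members were called (10.5%), beside 5.42% of all genes, and since the members were chosen with this contrast known, nothing is read from that share. Tfe3, Wipi1 and Atp6v0a1 fell and Hexa rose. Of all members, 19 lay above 0 and 19 below, and the median log2 fold change was 0.0037, beside 0.0281 over all genes. Just outside the threshold were Tfec and the lysosomal membrane protein Lamp2 (0.36 ± 0.12, adjusted p = 0.0930). Without the batch 3 female controls none of the 38 was called (edgeR, 154 of all genes called).

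**Figure D2:**
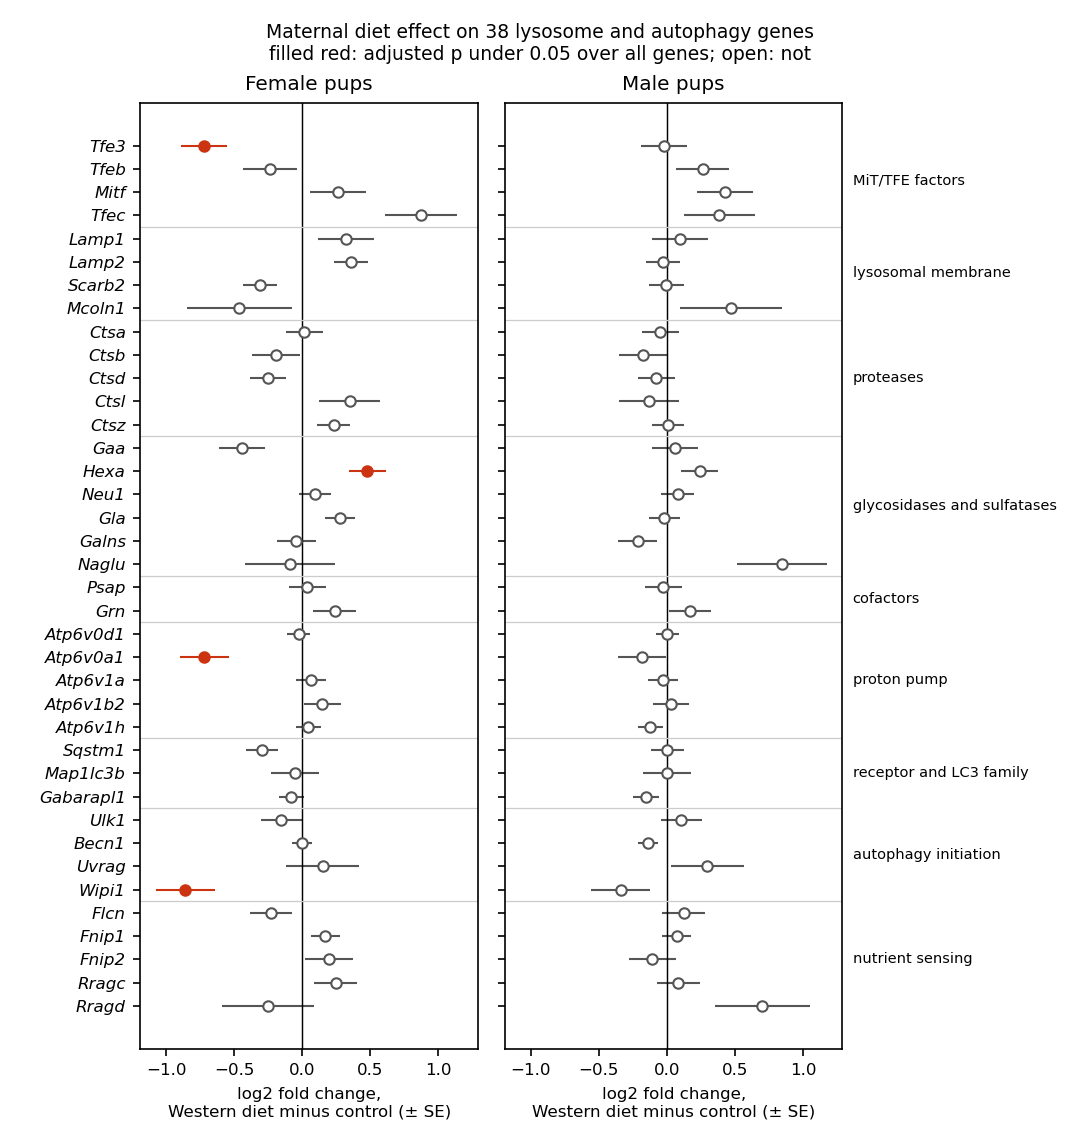
Log2 fold change with its SE (x axis) of each of the 38 genes (y axis, grouped by role) for the maternal Western diet in female and in male pups. In females Tfe3, Atp6v0a1 and Wipi1 (filled) lie left of 0 and Hexa right of 0, and no male value is filled.

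Wipi1 binds phosphoinositides on forming autophagosomes. Female controls had 24.99, 32.2 and 65.9 CPM and female Western diet pups 14.6, 20.5 and 26.3. In 5 of 6 Western diet libraries Wipi1 lay below every control. The log2 fold change was -0.86 ± 0.22 (adjusted p = 0.0207). In males the values were 17.8, 22.8 and 51.3 in controls and 17.97, 20.1 and 26.04 in Western diet pups, and the log2 fold change of -0.34 ± 0.22 missed the threshold. In females batches 1 to 3 gave -0.36, -0.53 and -1.83, and without the batch 3 controls the value was -0.61 ± 0.23 (adjusted p = 0.282). Leaving out any 1 of female control libraries 5 and 6 and female Western diet libraries 5 and 6, all of batch 3, also ended the call.

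Atp6v0a1 encodes a membrane subunit of the V-ATPase, the proton pump that acidifies lysosomes. Female controls had 47.8, 62.8 and 87.2 CPM and female Western diet pups 22.8, 39.5 and 55.2, with 4 of 6 Western diet libraries below every control. The log2 fold change was -0.72 ± 0.18 (adjusted p = 0.0188). Males had 33.1, 43.3 and 66.3 in controls and 36.5, 39.6 and 46.1 in Western diet pups, with -0.18 ± 0.18. In females the batches gave -0.23, -0.73 and -1.35, and without the batch 3 controls the value was -0.57 ± 0.20 (adjusted p = 0.248). Leaving out female control library 5 or 6 alone also ended the call. The other 4 pump members lay within 0.15 of 0 in females, and Atp6v0d1, the highest of the 5 per kilobase of exon, had medians of 125.9 and 124.6 CPM.

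Hexa, the hexosaminidase subunit that degrades GM2 ganglioside, was the only member that rose in females in edgeR (DESeq2 also called Tfec). Controls had 71.9, 103.6 and 150.9 CPM and Western diet pups 122.5, 137.9 and 177.2. All 6 Western diet libraries lay above the control mean and 2 lay above every control, with a log2 fold change of 0.48 ± 0.14 (adjusted p = 0.0444). Males had 90.9, 105.2 and 131.1 in controls and 111.4, 129.8 and 139.4 in Western diet pups, with 0.24 ± 0.14. In females the batches gave 0.15, 0.29 and 1.03, and without the batch 3 controls the value was 0.24 ± 0.13 (adjusted p = 0.474). The Hexa call was lost in 17 of the 24 fits that left out 1 library, controls and Western diet pups of both sexes among them, with values from 0.38 to 0.56. It was also lost in limma-voom (0.50), without a batch term (0.45) and with the replicate number as a block (0.475), at a fold about as large.

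Levels of markers of other cell types also differed between the diets in the same libraries. Summed mature erythroid markers were at 1141 to 8515 CPM in female controls and 641 to 2777 in female Western diet pups, and in males at 2459 to 6849 and 869 to 3129. All 8 of these markers had log2 fold changes below 0 in both sexes. In females edgeR called 3 of the 8, beside 5.42% of all genes, and 1 of the 8 without both batch 3 controls. The anion exchanger Slc4a1 was at -1.73 ± 0.40 (log2 fold change, SE) in females (edgeR adjusted p = 0.0135, and 0.161 without both batch 3 controls, at -1.51) and at -1.19 ± 0.40 in males (adjusted p = 0.377). The red cell membrane protein gene Epb42 was at -1.08 ± 0.24 in females (edgeR adjusted p = 0.00914, and 0.153 without both controls, at -0.93) and at -1.06 ± 0.24 in males (adjusted p = 0.158). Averaged over both sexes, both genes kept the call in edgeR without both controls. Slc4a1 was at -1.46 ± 0.29 (adjusted p = 0.00323, and 0.0160 without both, at -1.38). Epb42 was at -1.07 ± 0.17 (adjusted p = 0.000397, and 0.00302 without both, at -1.01).

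Summed T and NK cell markers ran the other way, at 114 to 279 CPM in female controls (207 to 279 without both batch 3 libraries) and 258 to 385 in female Western diet pups, and in males at 231 to 370 and 326 to 389. Most of that sum was Nkg7, a cytotoxic granule gene, which was at 0.80 ± 0.18 in females (edgeR adjusted p = 0.00850, and 0.165 without both controls, at 0.47) and at 0.43 ± 0.17 in males (adjusted p = 0.4932). It was the only 1 of the 7 markers called in females, where 6 of the 7 were above 0 (median log2 fold change 0.18). In males only 1 of the 7, Nkg7, was above 0 (median -0.22), so the male sum does not stand for the list. Averaged over both sexes 2 of the 7 were above 0 (median -0.05). In that average Nkg7 was at 0.61 ± 0.12 (edgeR adjusted p = 0.00355) and kept the call without both controls (0.43, adjusted p = 0.0138). Summed B and plasma cell markers were at 349 to 1134 CPM in female controls (662 to 1134 without both batch 3 libraries) and 503 to 2115 in female Western diet pups. In males they were at 639 to 1253 and 807 to 1244. Of 8 markers the antibody genes Igkc (1.63 ± 0.35) and Jchain (1.502 ± 0.364) and the receptor gene Cd79b (0.50 ± 0.14) rose in females. Without both batch 3 controls these 3 were at 1.25, 1.10 and 0.31, and none was called. All 8 were above 0 in females (median 0.53) and 4 of the 8 in males (median 0.03). Summed mast cell and basophil markers were at 288 to 582 CPM in female controls (407 to 582 without both batch 3 libraries) and 444 to 986 in female Western diet pups. In males they were at 484.5 to 833.8 and 593.2 to 896.8. None of these 8 markers was called in either sex (edgeR). The part of these markers in the results on the 38 genes was not tested.

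No other member was called in females (edgeR). Lamp1 (0.32 ± 0.21) and Lamp2 were above 0, while Scarb2, which carries glucocerebrosidase to the lysosome, was at -0.31 ± 0.13 and Mcoln1, the lysosomal calcium channel, at -0.46 ± 0.39. Mcoln1 had the widest swing between batches, at 0.14, 0.66 and -2.34 in females, where batch 3 controls had 59.5 and 46.9 CPM and batch 3 Western diet pups 11.9 and 9.12. Without both batch 3 controls Mcoln1 was at 0.07 ± 0.38. The 5 cathepsins, proteases of the lysosome, ranged from -0.25 (Ctsd) to 0.35 (Ctsl). Among the glycan and sulfate ester hydrolases Gaa, which degrades glycogen, was at -0.45 ± 0.17 (adjusted p = 0.125), with all 6 Western diet libraries below the control mean, and Neu1, Gla, Galns and Naglu lay between -0.09 and 0.28. The sphingolipid activator precursor Psap and progranulin (Grn) were at 0.04 ± 0.14 and 0.24 ± 0.16. The cargo receptor Sqstm1 was at -0.30 ± 0.12 (adjusted p = 0.151), and Map1lc3b and Gabarapl1, which coat autophagosomes, were at -0.05 ± 0.18 and -0.08 ± 0.09. The initiators Ulk1, Becn1 and Uvrag lay between -0.16 and 0.15, and the nutrient-sensing genes Flcn, Fnip1, Fnip2, Rragc and Rragd, which act on mTORC1 at the lysosome, between -0.25 and 0.24.

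In males none of the 38 members was called (edgeR), beside 0.0102% of all genes. At an unadjusted p under 0.05 there were 2 of the 38 members, beside 8.4% of all genes. DESeq2 and limma-voom called 0 of the 38, and the lowest adjusted p in edgeR was 0.475. Naglu, which degrades heparan sulfate, had the widest difference: controls had 4.26, 9.33 and 17.3 CPM and Western diet pups 15.1, 16.3 and 19.7, with a log2 fold change of 0.85 ± 0.33. All 6 male Western diet libraries lay above the control mean. Rragd, a Rag GTPase, was at 0.70 ± 0.35 on very low levels, with medians of 0.256 and 0.599.

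**Figure D3:**
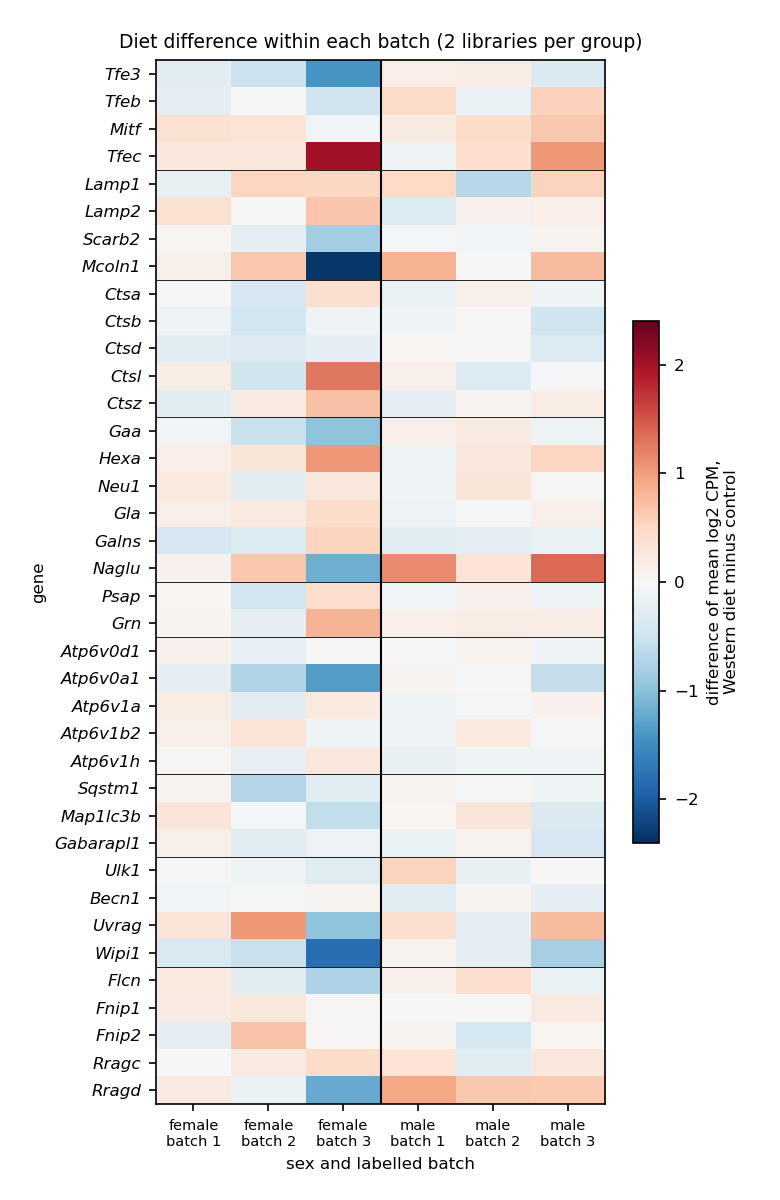
Difference in mean log2 CPM, Western diet minus control, of each of the 38 genes (y axis) within each batch of females and males (x axis), 2 libraries per group. The female batch 3 column holds the deepest colours, among them Mcoln1 at -2.34, Tfec at 2.02 and Wipi1 at -1.83.

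Of the 38 members 13 had one sign in all 3 batches in females and 8 in males. The share over all genes was not counted, so nothing is read from these counts. Tfe3, Wipi1, Atp6v0a1, Hexa and Tfec were among the 13 in females, with batch 3 the largest in size for each of the 5. The 5 were named for their effect over all batches, which these differences make up, so the shared sign is no further result.

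Averaged over both sexes 4 members were called, beside 5.70% of all genes. Wipi1 fell (-0.60 ± 0.15, adjusted p = 0.0209) and Atp6v0a1 fell (-0.45 ± 0.13, adjusted p = 0.0351). Hexa rose (0.36 ± 0.10, adjusted p = 0.0309), as did Tfec. Tfe3 was at -0.37 ± 0.12 and missed the threshold in edgeR (adjusted p = 0.0686). Its call was gained in DESeq2 (-0.39), with no filter on low counts (-0.39), without batch 1 (-0.56), in batch 3 alone (-0.91) and in 4 of the 24 fits that left out 1 library, and without both batch 3 female controls it was at -0.30 ± 0.12 (adjusted p = 0.238). Without the batch 3 female controls none was called. Wipi1 was then at -0.49 (adjusted p = 0.101), Atp6v0a1 at -0.39 (adjusted p = 0.152) and Hexa at 0.23 (adjusted p = 0.185). Over the 24 fits that left out 1 library, the call was lost in 19 for Tfec, 11 for Atp6v0a1, 10 for Hexa and 1 for Wipi1 (without male Western diet library 5).

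The diet effect in males minus that in females passed the threshold for none of the 38 members, and 0% of all genes were called (edgeR). At an unadjusted p under 0.05 there were 4 of the 38 members, beside 8.3% of all genes, and DESeq2 called none of the 38. The widest differences were in Rragd (0.96 ± 0.49), Mcoln1 (0.94 ± 0.54) and Naglu (0.94 ± 0.47). Calls in females and none in males are therefore not shown to be a difference between the sexes.

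Between the sexes, averaged over diets, none of the 38 members was called, beside 0.184% of all genes (DESeq2 called none of the 38). At an unadjusted p under 0.05 there were 2 of the 38, beside 12.4% of all genes. The X-linked members Tfe3, Lamp2 and Gla were at -0.05 ± 0.12, 0.02 ± 0.09 and 0.03 ± 0.08 (log2, male minus female).

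Levels per length spanned a wide range. Psap was the highest at 335 CPM per kilobase of exon, averaged over 24 libraries, followed by the cathepsins Ctsz (171), Ctsb (129) and Ctsd (97.6). Tfe3, at 4.48 ± 1.22 (SD, n = 24), ranked 29 of 38, and Rragd was the lowest at 0.115. Neighbours such as Tfe3, Rragc (4.48 ± 0.91) and Ctsl (4.69 ± 1.62) did not differ beyond their spread.

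**Figure D4:**
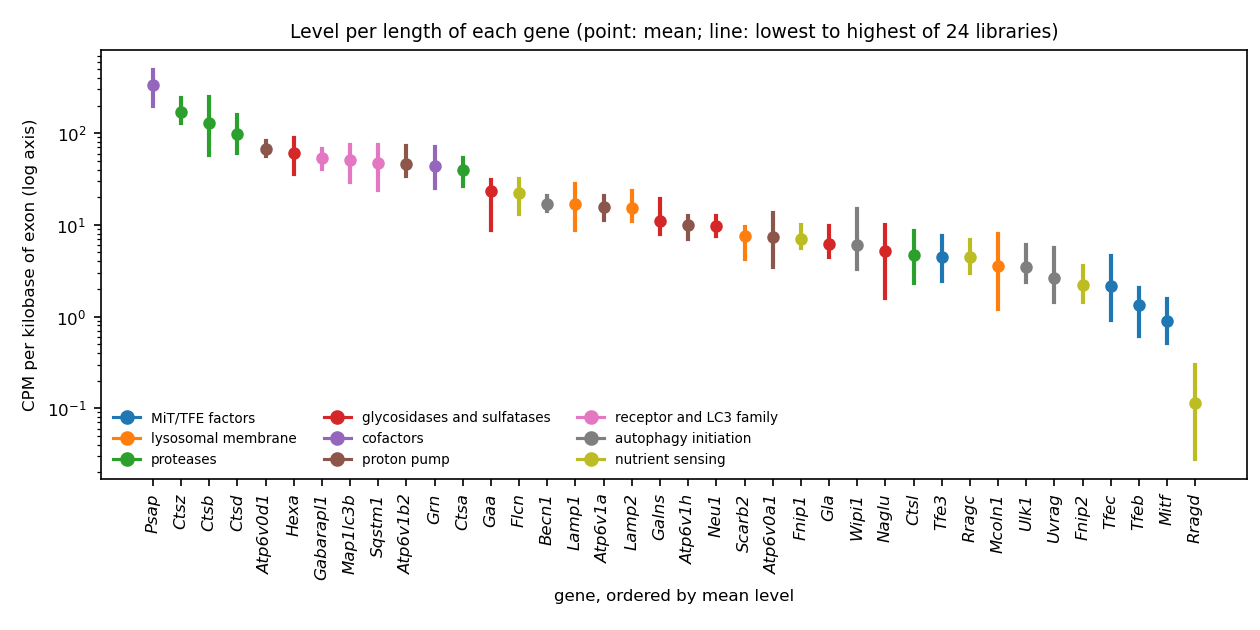
CPM per kilobase of exon (y axis, log scale) of each of the 38 genes (x axis, ordered by mean), with points for the mean and lines from the lowest to the highest of 24 libraries, coloured by role. Psap leads at 335, and the MiT/TFE factors lie in the lower part, from Tfe3 at 4.48 to Mitf at 0.893.

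The members were also ordered by batch. Of the 38, 25 were highest in batch 1, beside 33.2% of all genes. The range of the batch means (log2) had a median of 0.31 over the members and 0.35 over all genes. It was over 0.5 for 11 of the 38, beside 32.1% of all genes, so the members did not vary more by batch than genes in general. The widest ranges were 1.19 for the low-count Rragd, 0.84 for Ctsb, 0.83 for Sqstm1, 0.76 for Grn and 0.73 for Psap. Psap had 1001 CPM or more in every batch 1 library. The summed macrophage markers moved with the same batch, at 604 to 1596 CPM (median 1075) in batch 1, 282 to 515 in batch 2 and 272 to 715 in batch 3. Some other marker sums were also highest in batch 1 by their medians over batches 1 to 3. These were 76.2, 57.1 and 40.9 CPM for neutrophils, 3189, 2118 and 1583 for mature erythroid cells, 1106, 861 and 723 for B and plasma cells and 530, 507 and 337 for dendritic cells. The LSK, mast cell and basophil, T and NK cell and megakaryocyte sums were highest in batch 2. The part of these markers in the members' levels was not tested. Tfe3 differed little by batch, with a range of 0.08.

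**Figure D5:**
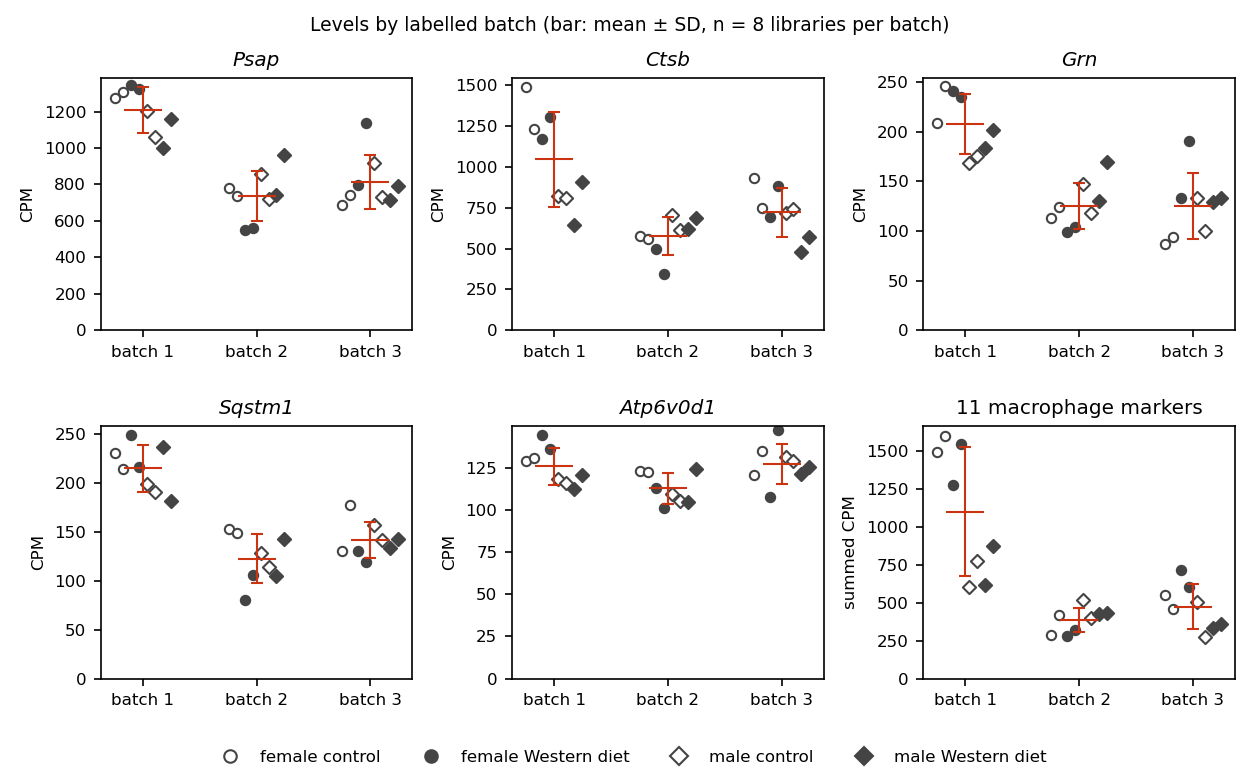
CPM of 5 genes and the summed CPM of 11 macrophage markers (y axes) in each library by labelled batch (x axis), with symbols for sex and diet and bars for mean ± SD of 8 libraries. Psap, Ctsb, Grn and Sqstm1 stand highest in batch 1, as do the macrophage markers, while the batch means of Atp6v0d1 span 0.17 on the log2 scale.

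None of the members called in any comparison had CACGTG in its window. In females 0 of the 12 members with CACGTG in the window were called and 4 of the 21 without it, with medians of 0.04 and -0.05. With 5.42% of all genes called and the members chosen with this contrast known, nothing is read from these counts. The 6 members with TCACGTGA had a median of -0.01, from -0.46 (Mcoln1) to 0.28 (Gla). In males the medians were 0.03 and 0.01 with and without CACGTG.

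Further genes of these pathways, in lists chosen with earlier results known, gave 10 called of 144 tested in females (6.94%), beside 5.42% of all genes. The exosome and lysosome tetraspanin Cd63 (0.61 ± 0.15) and the sorting receptor Sort1 (0.59 ± 0.15) rose. The lysosomal channel Tpcn1 (-0.81 ± 0.18) and the arginine sensor Slc38a9 (-0.51 ± 0.13) fell. Of 42 other autophagy genes, the receptor Optn (-0.94 ± 0.23) and the LC3 protease Atg4b (-0.34 ± 0.10) fell. Of 30 other mTORC1-sensing genes, Sesn2 (-0.98 ± 0.21), Nprl3 (-0.49 ± 0.10), Mlst8 (-0.63 ± 0.18) and Wdr59 (-0.41 ± 0.12) fell. None of 32 other hydrolases and none of 14 other proton pump genes passed the test in either sex (edgeR). In males none of the 144 was called (edgeR, DESeq2 and limma-voom), beside 0.0102% of all genes in edgeR. At an unadjusted p under 0.05 there were 8 of the 144 in edgeR, beside 8.4% of all genes. Averaged over both sexes 4 rose and 5 fell (6.25% of the 144, edgeR), beside 5.70% of all genes.

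Without both batch 3 female controls none of these 144 genes was called in females (edgeR), beside 154 of all genes. At an unadjusted p under 0.05 there were 22 of the 144. The share of all genes at that threshold was not counted in this fit, so nothing is read from the 22. The lowest adjusted p of the 10 was then that of Nprl3, a subunit of the GATOR1 complex, at -0.45 ± 0.12 (0.0833). Sesn2, a leucine sensor, was at -0.89 ± 0.25, Tpcn1 at -0.54 ± 0.17, Optn at -0.57 ± 0.22 and Mlst8 at -0.56 ± 0.21. Cd63 was at 0.34 ± 0.13, Sort1 at 0.44 ± 0.16, Slc38a9 at -0.31 ± 0.14, Atg4b at -0.25 ± 0.11 and Wdr59 at -0.28 ± 0.13. In the average 2 of the 9 remained called without both controls (edgeR), where 447 of all genes were called. Nprl3 fell (-0.33 ± 0.08, adjusted p = 0.0191) and Sesn3, a sestrin like Sesn2, rose (0.47 ± 0.12, adjusted p = 0.0392). With all libraries DESeq2 called 15 of the 144 in females, beside 1799 of all genes, and limma-voom called 7 of the 144.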

How the data were processed

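Per the labels' protocols, libraries were made from RNA with an integrity number over 8.0 with a low-input polyA kit, which does not mark strand. The authors deposited raw counts per gene, 1 file per library, and FastQC, cutadapt, STAR, HTSeq, DESeq2 and build GRCm39 are named per the submitters' processing notes. No source used here gives tool versions, annotation release or the strand setting, so reads of overlapping or antisense genes cannot be told apart, and 4.41 to 5.20% of each library was ambiguous. Lines naming no gene held 31.0 to 39.3% and were left out. Symbols came from an older annotation and matched 52081 of 55414 identifiers.

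Counts were tested in edgeR 4.0.16 (R 4.3.3): filterByExpr, TMM, and a robust quasi-likelihood model with group and batch over all 24 libraries (18 residual degrees of freedom, common biological coefficient of variation 0.261). P-values are two-sided, adjusted by Benjamini-Hochberg over 19616 genes and called under 0.05. The script was tested on simulated data. CPM uses TMM library sizes; log2 CPM has a prior count of 2. Levels per length use exon length from that annotation. Alternatives used DESeq2 1.42.0, limma 3.58.1, other filters, covariates and subsets of libraries. Named genes are the 4 factors, called members and the most abundant of each role, with exceptions chosen after their values were seen (Gaa, Lamp1, Mcoln1, Naglu and Rragd among them). Members and lists were chosen with earlier results of these data known. Between the 2 most alike libraries, chi-square over its degrees of freedom was 17.2, so none is a repeat of another. Some marker genes are not reported here.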

Additional observations from a re-analysis of the deposited data

Results flagged for a closer look

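In 7 of 152 pairs of a gene and a group, 1 library lay apart from the other 5 by more than the critical share of the group's range in Dixon's test, and chance alone gives about 1 in 20. In male Western diet pups these were Lamp2 in library 4 at 183.4 CPM, Galns in library 3 at 21.17 CPM and Fnip2 in library 4 at 12.2 CPM. In female Western diet library 5 Gaa was at 42.09 CPM, the lowest of its group. In male control library 1 Gaa was at 73.97 CPM. Uvrag in female control library 5, a library that stands apart on the first principal component, was at 50.72 CPM, and Fnip1 in male control library 2 was at 70.48 CPM.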

How the results depend on the processing

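Settings with batches alone, and without both batch 3 female controls, were chosen after seeing the data, and the cause of the changes below was not tested. In females 4 members were called, and 0 with only the female groups, without batch 2, without batch 3, in batch 1 alone, in batch 2 alone and without both batch 3 female controls, but 9 without batch 1 and 12 in batch 3 alone. Leaving out each library gave 1 to 6; without female control replicate 5 or 6 Tfe3 alone was called. Tfe3's female call held in all 24 such fits (-0.84 to -0.62) and was lost with only the female groups (-0.77) and without batch 2 (-0.83), where the fold was larger, and without batch 3 (-0.40), in batch 1 or 2 alone (-0.30 and -0.53) and without both batch 3 controls (-0.55), where it was smaller. Of 1064 genes called in females there were 2023 with no filter, 1799 in DESeq2, 404 without a batch term, 358 with only the female groups, 1839, 297 and 146 without batches 1, 2 and 3, 0, 22 and 2719 in each batch alone, and 154 without both batch 3 controls (504 to 1386 leaving out each library). Mitf in females was -0.0568 in batch 3 alone.

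In males 1 member was called with no filter, 0 otherwise (0 to 0 leaving out each library). The 2 genes called in males became 380 with no filter, 7 with a stricter filter, 106 in DESeq2, 112 in limma-voom, 0 without a batch term, 1 with the replicate block, 1 with only the male groups, 1, 1 and 0 without batches 1, 2 and 3, and 0 in each batch alone (1 to 13 leaving out each library). Tfe3 in males was 0.16 without batch 3 and 0.14 and 0.18 in batches 1 and 2 alone (-0.10 to 0.12 leaving out each library). Tfeb in males was -0.14 in batch 2 alone, and Tfec -0.20 in batch 1 alone.

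In the average, the 4 members became 1 without a batch term, 2 with the replicate block, and 0 without batch 2, without batch 3, in batch 1 or 2 alone and without both batch 3 controls (0 to 5 leaving out each library). The 1118 genes became 1693 with no filter, 1787 in DESeq2, 466 without a batch term, 556 and 143 without batches 2 and 3, 0, 1 and 1781 in each batch alone, and 447 without both controls (716 to 1464 leaving out each library). Tfeb, at 0.01, changed sign: -0.0013 with RLE factors, -0.0018 with no filter, -0.0021 in DESeq2, -0.0064 in limma-voom, -0.0298 and -0.0206 without batches 1 and 3, -0.0875 in batch 2 alone and -0.0186 without both controls (-0.06 to 0.0568 leaving out each library).

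For the difference of diet effects, 2 members and 572 genes were called with no filter, 8 genes in DESeq2 and 1 in batch 1 or batch 3 alone. Between the sexes 2 members were called with no filter and 1 without batch 2, and the 36 genes became 967, 260, 173 and 12 (no filter, DESeq2, limma-voom, no batch term), 124 and 23 without batches 1 and 3, 19, 11 and 6 in each batch alone and 19 without both controls (22 to 66 leaving out each library). TCACGTG, 1 base shorter than TCACGTGA, stood in 11 members.

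Whether replicate numbers pair the libraries was not settled. Same-numbered libraries of 36 pairs had correlations of deviations from -0.43 to 0.17 (median -0.12), 1 over 0.1. Of the 24 libraries, 0 correlated best with their own number. Same-numbered libraries share a batch, and taking out batch means by itself lowers the correlation within a batch, so these values cannot decide it. Depth limits Rragd most, at 0.144 to 1.535 CPM.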
